A study of Mus musculus with 13 samples.

Results

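Untreated leukemia stem cells of a drug time course (LSC_A485_0h, 2 libraries, called 0 h here) were set against the single library labelled LSC, which was deposited beside normal progenitors and mature leukemia cells in the same series. These are 3 of the 13 mRNA libraries, and they were taken by their labels, with all 24328 genes of the files. All 3 are labelled as leukemia stem cells from mouse bone marrow with a tumor disease state, and the protocol names the leukemia as murine MLL-AF10, a disease driven by a fusion of the histone methyltransferase gene Mll with its partner Af10. The 0 h libraries carry the label untreated and open a course of A-485, a compound that blocks the catalytic acetyltransferase domain of p300 and of its paralog CBP. The LSC library has no treatment label. One growth protocol, a rich medium with serum, antibiotics and WEHI-conditioned medium, is attached to every sample, so the labels do not say whether the LSC library came from cultured cells or from sorted marrow. No clone, animal, age or strain is given for any of the 3, and the labels do not say that the 2 replicates came from separate cultures, so the spread between them may be technical. The other libraries serve as side-by-side values: normal granulocyte-monocyte progenitors (GMP, wild type, 1 library), mature leukemia cells (mAML, tumor, 1 library) and leukemia stem cells after 8, 24, 48 and 72 h of A-485 (2 each).

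Leukemia stem cells are the fraction of a leukemia that can renew itself. In leukemias with MLL fusions they resemble granulocyte-monocyte progenitors and keep the homeobox genes Hoxa9 and Meis1 active. Myeloid progenitors make the enzymes of the primary granules, then the proteins of the later granules, and leave the cell cycle as they mature into neutrophils or monocytes. Their metabolism follows oxygen, nutrients and growth factors: HIF, the oxygen-regulated transcription factor, raises glycolysis genes, SREBP raises sterol synthesis genes when sterol is short, and ATF4 raises amino acid genes when amino acids are short. WEHI-conditioned medium is widely used as a source of interleukin-3 (IL-3), a growth factor that signals through STAT5.

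The label was checked against genes of myeloid progenitors and of MLL-fusion leukemia. Hoxa9 was at 119 and 147 CPM at 0 h and 228 CPM in LSC, where CPM is the count scaled to library size by the trimmed mean of M values, and at 17.9 CPM in GMP. Hoxa10 was at 138 and 179.9 CPM at 0 h, 81.4 in LSC and 0.0998 in GMP. Kit, the stem cell factor receptor, was at 192 and 189 CPM at 0 h and 422 CPM in LSC, and Mpo, the myeloperoxidase of primary granules, was at 2968 and 2192 CPM at 0 h and 14491 CPM in LSC. Meis1 was at 33.6 and 53.2 CPM at 0 h, 115 CPM in LSC and 9.18 CPM in GMP. Each of these genes was thus present in all 3 libraries. GMP had 447 CPM of Kit and 30126 CPM of Mpo, above all 3, so neither gene sets these libraries apart from GMP. In mAML, Hoxa9 was at 145 CPM, Hoxa10 at 52.2, Meis1 at 77.3, Kit at 2.95 and Mpo at 90.6.

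Total counts were 9763276 and 8639937 at 0 h and 40468515 in LSC, so a level of 3 counts is 0.187 CPM over both 0 h libraries and 0.0953 CPM in LSC. The estimated fragment was 267 and 268 bases long at 0 h, 168 in LSC, 149 in GMP, 160 in mAML and 248 to 285 in the treated libraries. Across the 11995 genes tested, the median absolute log2 difference was 0.16 between the 0 h replicates and 0.52 between their mean and LSC. The Spearman correlation across genes, a description only, was 0.99 between the 0 h replicates, 0.853 and 0.846 between each of them and LSC, 0.88 and 0.874 between each of them and GMP, and 0.913 between LSC and GMP. Depth, fragment length, library set and any difference in handling go with the labels in this comparison and cannot be told apart from it.

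**Figure D1:**
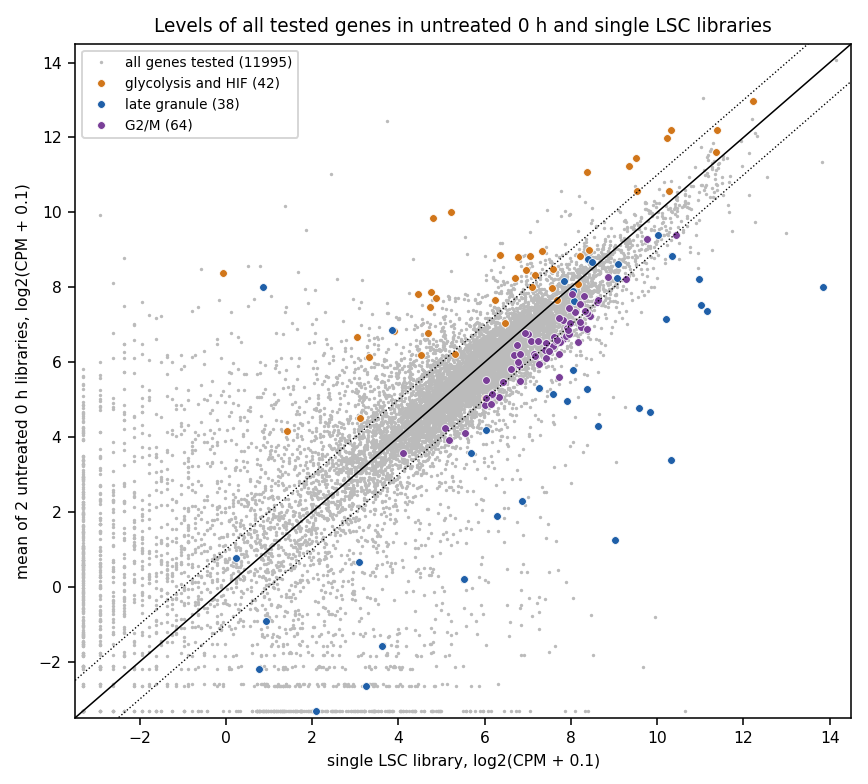
Level of each of the 11995 tested genes as log2(CPM + 0.1), with the mean of the 2 untreated 0 h libraries on the y axis and the single LSC library on the x axis; the solid line marks equal levels and the dotted lines a 2-fold difference. Glycolysis and HIF genes lie mostly above the line, late granule genes mostly below it, and all 64 G2/M genes had fitted differences below 0.

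A gene was called when edgeR's quasi-likelihood test gave an adjusted p under 0.05 and the difference was at least 2-fold. The test compared the 2 libraries at 0 h with 1 LSC library and took the spread of that lone library from the paired libraries of the time course. At 0 h, 1621 genes were higher than in LSC (13.5% of those tested) and 1334 were lower (11.1%), with a median log2 difference of -0.07 over all genes. At the same adjusted p with no limit on fold, 2258 were higher (18.8%) and 2445 lower (20.4%). At least 4-fold differences numbered 981 higher and 758 lower, and at least 16-fold differences 550 higher and 501 lower. Of all calls, 54.9% were higher; on TPM, which is scaled for transcript length within each library, the share was 72% with a pseudocount of 1 (1517 higher, 590 lower) and 76.1% with 0.1 (1717 higher, 539 lower). Gene lists were read against these shares. The filter on low counts keeps a gene that is above the cutoff of 1.19 CPM in enough of the 11 libraries, so a gene near 0 in one label was tested because it is high in another, and its call follows in part from the filter. Above the cutoff both in LSC and in at least 1 of the 0 h libraries were 9936 genes, of which 986 were called higher (9.92%) and 840 lower (8.45%). For lists where this matters, the counts over such members, called present in both, are given beside the counts over all tested members.

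**Figure D2:**
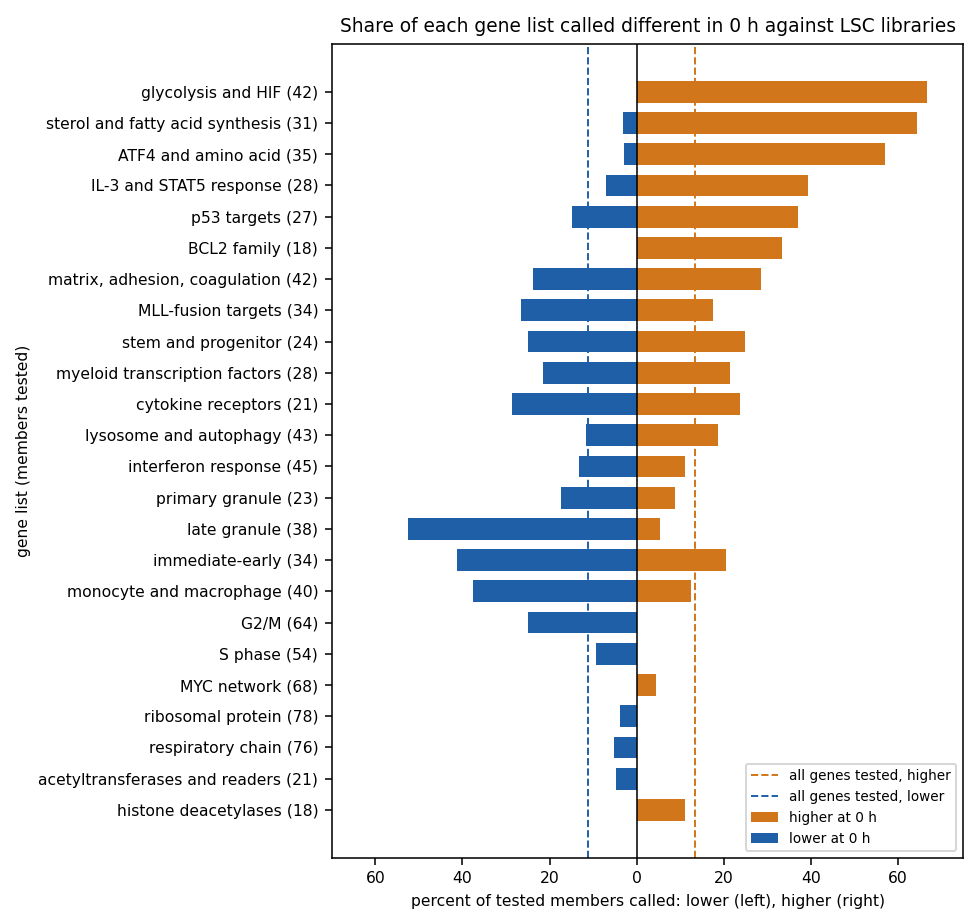
Percent of the tested members of the gene lists drawn that were called higher at 0 h (right, orange) or lower at 0 h (left, blue) than in LSC; dashed lines mark the shares over all tested genes, 13.5% higher and 11.1% lower, and the number of members tested stands in brackets. Marker lists of other cell types, with few tested members, are not drawn; among the lists drawn, glycolysis, sterol and amino acid genes reach furthest to the right, and late granule, immediate-early and monocyte genes furthest to the left.

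Glycolysis and HIF target genes stood higher at 0 h. Of 42 tested members, 28 were called higher and none lower (66.7% against 13.5% of all genes), with a median log2 difference of 1.66. The summed TPM of the list was 30088 and 31712 at 0 h and 12203 in LSC, beside 11014 in GMP, 10596 in mAML and 10316 to 13632 in the treated libraries. The sum at 0 h therefore lay above that of each of the other 11 libraries.

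Ak4, a mitochondrial adenylate kinase, was at 349.7 and 315 CPM at 0 h and 0.858 CPM in LSC, a log2 difference of 8.58 ± 0.23 (SE) and an adjusted p of 2.83e-07; GMP had 86.7 CPM and mAML 0.143. The oxygen sensors Egln3 and Egln1, which hydroxylate HIF and are themselves HIF targets, were at 989.9 and 868 CPM and 236 and 232 CPM at 0 h, against 27.6 CPM and 26.7 CPM in LSC. Bnip3, a mitophagy receptor, was at 1070.5 and 996 CPM at 0 h and 37.1 CPM in LSC (log2 difference 4.80 ± 0.21 (SE), adjusted p = 2.2e-06). For each of these 4 genes both 0 h libraries were several-fold above LSC and close to each other.

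Along the pathway, the glucose transporter Slc2a1 was at 175 and 179 CPM at 0 h and 26.3 CPM in LSC (log2 difference 2.75 ± 0.16 (SE), adjusted p = 7.85e-06). The phosphofructokinase genes Pfkp and Pfkm were at 441 and 487 CPM and 97.2 and 107 CPM at 0 h, against 81.2 CPM and 8.07 CPM in LSC. Phosphofructokinase makes the committed step of glycolysis. Aldolase Aldoa was at 3678 and 4479 CPM at 0 h and 1199 CPM in LSC, phosphoglycerate kinase Pgk1 at 2671 and 2949.8 CPM at 0 h and 732 CPM in LSC, and enolase Eno1 at 4579 and 4754 CPM at 0 h and 1277 CPM in LSC. Lactate dehydrogenase Ldha, which ends the anaerobic branch, was at 2358 and 2443 CPM at 0 h and 654 CPM in LSC. The log2 differences of these 4 genes were 1.77, 1.94, 1.87 and 1.88. The treated libraries, from the same time course, held 341 to 553 CPM of Ldha and 256 to 637 CPM of Pgk1, all below both 0 h libraries.

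Not every member was called. Vegfa, the HIF-induced angiogenic factor, was at 290.5 and 212 CPM at 0 h and 190.1 CPM in LSC (adjusted p = 0.423), and hexokinase Hk2 was at 250.2 and 263 CPM at 0 h and 138 CPM in LSC (adjusted p = 0.105). The second glucose transporter Slc2a3 was called at a log2 difference of 2.92 (146 and 80.6 CPM at 0 h, 14.9 CPM in LSC), but its adjusted p was 0.164 without replicate 1 and 0.0655 without replicate 2.

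**Figure D3:**
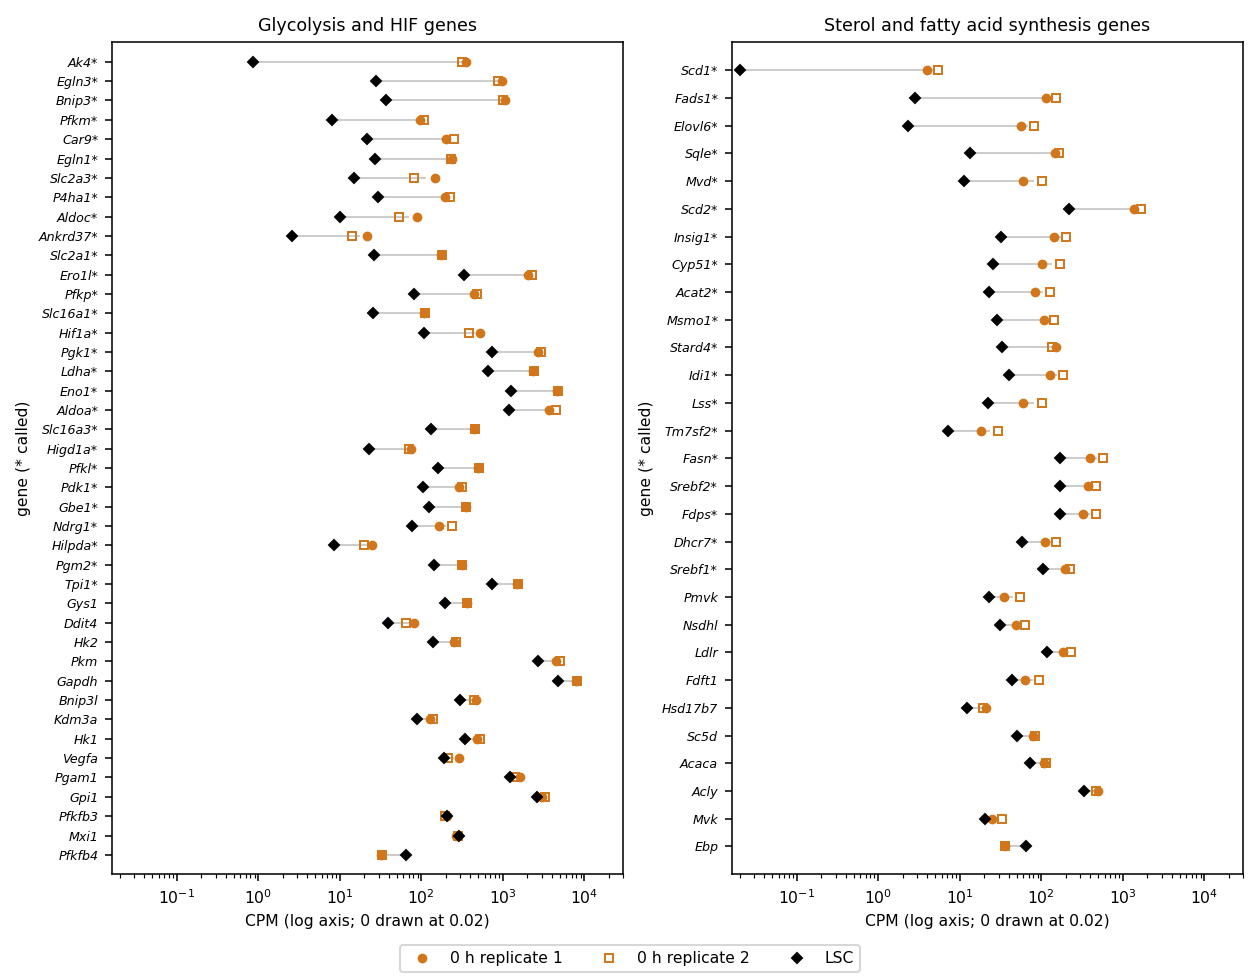
CPM on a log axis of the 42 tested glycolysis and HIF genes (left) and 29 of the 31 tested sterol and fatty acid synthesis genes (right) in both 0 h libraries (orange) and the LSC library (black diamond), ordered by log2 difference, with called genes starred and values of 0 drawn at 0.02. In most rows both orange marks lie together to the right of the diamond.

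HIF binds short core letters in promoters, ACGTG or GCGTG on either strand, and the 250 bases before the start of the 4 called members with the smallest adjusted p that have a promoter entry are shown for that reason. They come from RefSeq promoters of build GRCm38.p6, read along the gene's own strand, with the core letters in capitals, complements CACGT and CACGC included. CACGTG is both cores at once and is also the E-box bound by MYC and related factors. The windows are chr4:101419039-101419288 for Ak4 (plus strand), chr7:138909507-138909756 for Bnip3 (minus), chr8:124949255-124949504 for Egln1 (minus) and chr15:98092339-98092588 for Pfkm (plus); Ak4 and Pfkm each have 4 listed starts, of which the first is shown.
Ak4: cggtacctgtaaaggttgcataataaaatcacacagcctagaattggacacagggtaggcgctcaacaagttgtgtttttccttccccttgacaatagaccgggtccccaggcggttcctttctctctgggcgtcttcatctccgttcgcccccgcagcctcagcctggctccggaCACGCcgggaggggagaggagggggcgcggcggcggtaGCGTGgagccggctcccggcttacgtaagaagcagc
Bnip3: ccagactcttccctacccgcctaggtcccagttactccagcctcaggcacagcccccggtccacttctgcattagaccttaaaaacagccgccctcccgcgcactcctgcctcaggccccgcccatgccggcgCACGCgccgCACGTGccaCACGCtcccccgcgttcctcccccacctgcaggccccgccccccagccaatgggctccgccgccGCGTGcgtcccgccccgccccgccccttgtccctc
Egln1: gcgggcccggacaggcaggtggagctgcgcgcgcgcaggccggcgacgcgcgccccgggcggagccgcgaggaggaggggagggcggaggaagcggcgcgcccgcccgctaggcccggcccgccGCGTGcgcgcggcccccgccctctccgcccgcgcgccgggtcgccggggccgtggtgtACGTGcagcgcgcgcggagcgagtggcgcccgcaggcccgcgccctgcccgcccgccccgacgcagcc
Pfkm: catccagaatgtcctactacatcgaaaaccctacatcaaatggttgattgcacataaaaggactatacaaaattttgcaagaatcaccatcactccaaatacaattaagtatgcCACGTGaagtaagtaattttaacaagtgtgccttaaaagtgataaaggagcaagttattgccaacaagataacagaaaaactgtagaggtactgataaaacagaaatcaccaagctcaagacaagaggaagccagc
The 4 windows hold 2, 5, 2 and 2 matches in the order printed, and both matches of Pfkm are 1 CACGTG. Of the 42 tested list members 38 had a promoter entry and 28 of those held a core; among the 28 called members 25 had an entry and 21 (84%) held a core, against 38.6% of the 27025 promoters in the table. A match is a string of letters, and binding was not measured.

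Sterol and fatty acid synthesis genes stood higher at 0 h as well. Of 31 tested members, 20 were called higher (64.5%) and 1 lower, with a median log2 difference of 1.49, and the summed TPM was 2028 and 2616 at 0 h and 753 in LSC. Squalene epoxidase Sqle was at 148 and 167 CPM at 0 h and 13.4 CPM in LSC (log2 difference 3.56 ± 0.32 (SE), adjusted p = 7.47e-05). The sterol sensor partner Insig1 was at 145 and 201 CPM at 0 h and 32.05 CPM in LSC. Of the fatty acid enzymes, the desaturase Scd2 was at 1367 and 1654 CPM at 0 h and 218 CPM in LSC, the desaturase Fads1 at 113 and 150.0 CPM at 0 h and 2.79 CPM in LSC, and the elongase Elovl6 at 56.2 and 80.8 CPM at 0 h and 2.32 CPM in LSC. Replicate 2 was the higher of the 0 h libraries for each of these 5 genes, and replicate 1 still lay above LSC. The SREBP motif TCACNCCAC, searched on both strands, was in none of the 13 called members' promoters with an entry, and in 1.04% of all promoters.

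Amino acid and ATF4 genes followed. Of 35 tested, 20 were called higher at 0 h (57.1%) and 1 lower, with a median of 1.06; of the 30 present in both, 15 were higher and 1 lower. Asparagine synthetase Asns was at 192 and 208 CPM at 0 h and 27.4 CPM in LSC (log2 difference 2.87 ± 0.29 (SE), adjusted p = 0.000141), and alanine transaminase Gpt2 at 144 and 142 CPM at 0 h and 4.13 CPM in LSC. The stress sensor Sesn2, a target of both ATF4 and p53, was at 79.6 and 64.7 CPM at 0 h and 7.40 CPM in LSC. Aldh18a1, which starts proline synthesis, and Slc3a2, the heavy chain of amino acid exchangers, had log2 differences of 1.58 ± 0.13 (SE) and 1.57 ± 0.19 (SE). Phgdh, the first enzyme of serine synthesis, was at 205 and 204 CPM at 0 h and 7.65 CPM in LSC, and GMP had 458 CPM; Phgdh was picked after its values were seen. Ppp1r15a, a phosphatase subunit that restores translation, was the lower member, at 36.8 and 37.3 CPM at 0 h and 89.9 CPM in LSC. Only 2 of 27 endoplasmic reticulum chaperone and unfolded-protein genes were called higher (7.41%, against 13.5% of all genes) and none lower. They were Xbp1 (858 and 739.9 CPM at 0 h, 380.4 in LSC) and Ern1 (146 and 142 at 0 h, 51.2 in LSC). Without replicate 1 there was 1 higher call.

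ATF4 with a C/EBP partner binds the letters TGATGNAA. These letters, on either strand, were in 7 of the 19 called members' promoters with an entry (36.8%) and in 3.53% of all promoters. The 2 of those 7 with the smallest adjusted p are shown, motif in capitals, from the same table: Asns at chr6:7693210-7693459 (minus strand) and Nupr1, a stress-induced chromatin protein, at chr7:126625471-126625720 (minus).
Asns: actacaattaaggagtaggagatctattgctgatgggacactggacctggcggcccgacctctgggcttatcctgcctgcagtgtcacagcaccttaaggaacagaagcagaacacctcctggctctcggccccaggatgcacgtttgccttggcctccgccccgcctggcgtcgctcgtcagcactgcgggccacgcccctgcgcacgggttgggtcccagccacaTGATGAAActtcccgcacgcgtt
Nupr1: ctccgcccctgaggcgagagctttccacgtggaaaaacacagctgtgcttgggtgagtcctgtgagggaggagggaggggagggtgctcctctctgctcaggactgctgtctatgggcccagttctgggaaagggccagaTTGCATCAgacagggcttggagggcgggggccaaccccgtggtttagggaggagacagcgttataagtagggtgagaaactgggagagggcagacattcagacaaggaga
Nupr1 was at 16.3 and 17.6 CPM at 0 h and 0.381 CPM in LSC. This motif and the SREBP letters were chosen after the expression values were seen.

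Matrix, adhesion and coagulation genes moved in both directions. Of 42 tested, 12 were called higher at 0 h (28.6%) and 10 lower (23.8%), while of the 26 present in both 7 were higher and 5 lower. The summed TPM was 4438 and 4788 at 0 h and 2142 in LSC. Thbs1, the secreted glycoprotein thrombospondin-1, was at 5692 and 5460.2 CPM at 0 h and 13.1 CPM in LSC (log2 difference 8.73 ± 1.27 (SE), adjusted p = 0.000945), beside 0.798 CPM in GMP, 1021 in mAML and 18.9 to 99.8 in the treated libraries. Thbs1 alone had 1207 and 1157 TPM of the list's sums at 0 h and 2.58 TPM in LSC. The elastic fibre protein Emilin2 was at 734 and 732 CPM at 0 h and 3.49 CPM in LSC, the integrin chain Itgb7 at 387 and 370.5 CPM at 0 h and 1.62 CPM in LSC, and the matrix protein Ecm1 at 239 and 176 CPM at 0 h and 1.46 CPM in LSC. The surface protease Adam8 was at 193 and 326 CPM at 0 h and 1.72 CPM in LSC. The crosslinking enzyme Tgm2, named after its values were seen, was at 1874 and 2264 CPM at 0 h and 5.27 CPM in LSC.

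On the other side, the coagulation factor chain F13a1 was at 115 and 142 CPM at 0 h and 632 CPM in LSC (log2 difference -2.30 ± 0.40 (SE), adjusted p = 0.00247), the tight junction gene Cldn15 at 33.97 and 33.1 CPM at 0 h and 286 CPM in LSC, and fibronectin Fn1 at 0.588 and 0.132 CPM at 0 h and 6.10 CPM in LSC. All 8 treated libraries were lower still for F13a1, at 0 to 1.79 CPM, while GMP had 1065 and mAML 2678. The count of lower members was 6 with either 0 h replicate left out. With DESeq2, F13a1 had an adjusted p of 0.153.

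**Figure D4:**
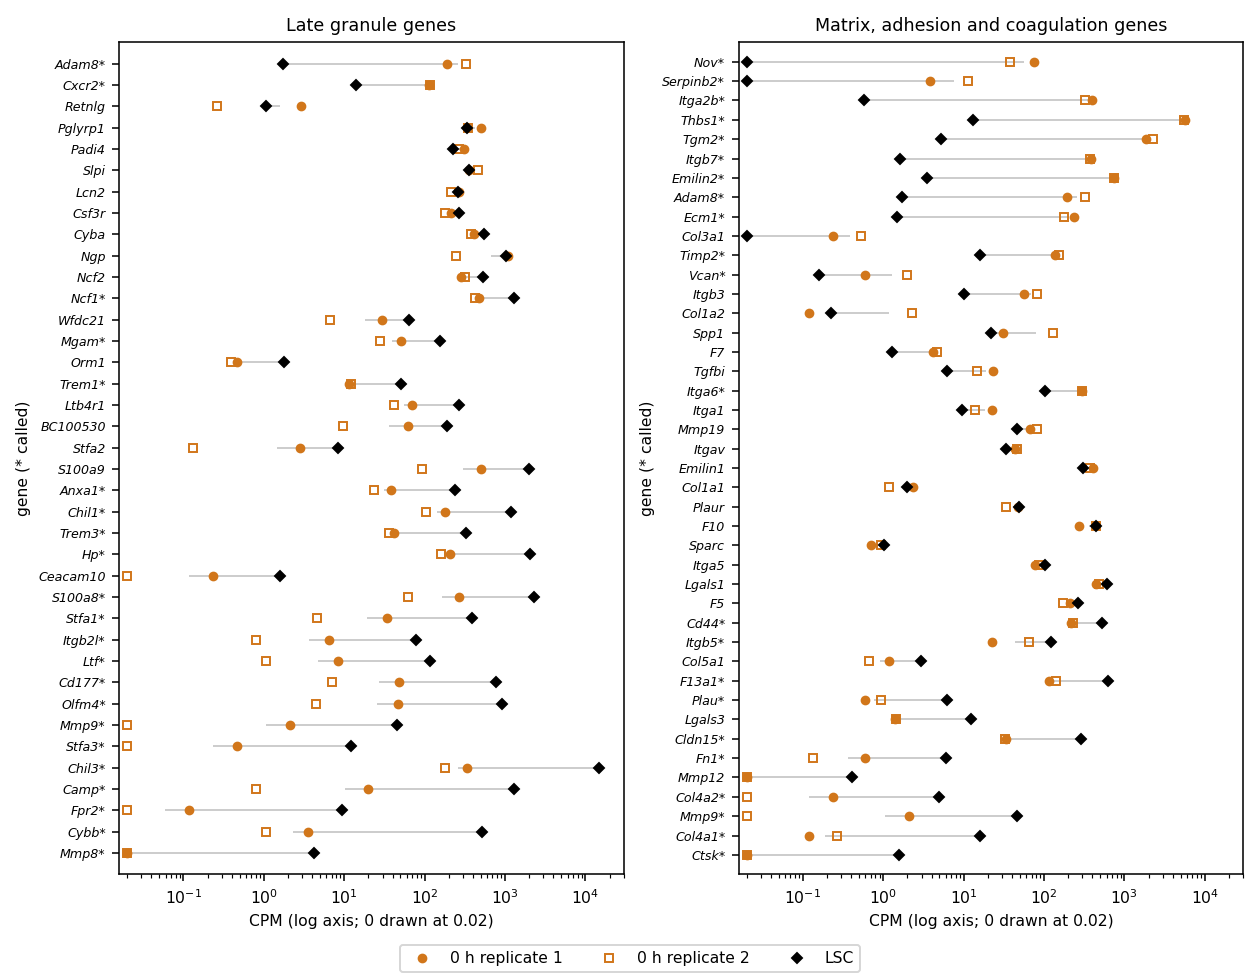
CPM on a log axis of every tested late granule gene (left) and matrix, adhesion and coagulation gene (right) in both 0 h libraries (orange) and the LSC library (black diamond), ordered by log2 difference, with called genes starred and values of 0 drawn at 0.02. Most late granule genes lie left of the diamond at 0 h with replicate 2 further left than replicate 1, and the matrix genes split to both sides.

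Late granule genes, those of the secondary and tertiary neutrophil granules with related maturation genes, stood lower at 0 h. Of 38 tested, 20 were called lower (52.6% against 11.1%) and 2 higher, with a median log2 difference of -2.60; of the 32 present in both, 17 were lower and 2 higher. The summed TPM was 12562 and 6007 at 0 h and 45328 in LSC, and replicate 2 held the least of the 3 libraries. Cathelicidin Camp was at 19.98 and 0.794 CPM at 0 h and 1281 CPM in LSC, and lactoferrin Ltf at 8.46 and 1.06 CPM at 0 h and 117 CPM in LSC. The oxidase chain Cybb was at 3.53 and 1.06 CPM at 0 h and 517 CPM in LSC (log2 difference -7.78 ± 0.57 (SE), adjusted p = 2.56e-05), and its cytosolic partner Ncf1 at 479.8 and 428 CPM at 0 h and 1297 CPM in LSC. Chil3, a chitinase-like protein of immature neutrophils, was at 334 and 179 CPM at 0 h and 14659 CPM in LSC. The calcium-binding gene S100a8 was at 269 and 62.6 CPM at 0 h and 2279.9 CPM in LSC, and its partner S100a9 at 504 and 93.3 CPM at 0 h and 1998 CPM in LSC, which was not called (adjusted p = 0.0821). The lipocalin gene Lcn2 was at 269 and 211 CPM at 0 h and 264 CPM in LSC, and was not called either (adjusted p = 0.715). Of the 38 members, 32 had a log2 difference below 0 and 6 above it. The 2 genes called higher were Adam8, given above, and the chemokine receptor Cxcr2, at 113 and 117 CPM at 0 h and 14.2 CPM in LSC. Without replicate 2 the count of lower members was 11, and Chil3 and S100a8 had adjusted p values of 0.0713 and 0.11. DESeq2 called 9 members lower and gave Camp and Ltf adjusted p values of 0.169 and 0.0697.

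Primary granule genes were less uniform. Of 23 tested, 4 were called lower at 0 h (17.4%) and 2 higher (8.7%), with a median of -0.42. The median was -0.08 without replicate 2 and 0.17 on TPM, where 21 members were tested. The summed TPM was 22718 and 20860 at 0 h and 48315 in LSC. Not called were the granule enzymes Mpo (1529 and 1128 TPM at 0 h, 6743 TPM in LSC), the elastase Elane (1402 and 1093 TPM at 0 h, 11982 TPM in LSC) and proteinase 3, Prtn3 (1609 and 1245 TPM at 0 h, 6812 TPM in LSC), with adjusted p values of 0.0855, 0.06 and 0.0579. The protease Ctsg was at 4685 and 5487 TPM at 0 h and 3171 TPM in LSC (adjusted p = 0.444). Called lower were Hp, which encodes the hemoglobin-binding haptoglobin, at 207 and 160.4 CPM at 0 h and 2068 CPM in LSC, Ms4a3, a marker of granulocyte-monocyte progenitors, at 350.3 and 254 CPM at 0 h and 1026 CPM in LSC, and Plac8, at 1103 and 964 CPM at 0 h and 3269.5 CPM in LSC. Hp is also a member of the late granule list and is counted among the lower calls of both lists. Fcnb, a ficolin of immature granulocytes, had 1 count in each 0 h library and 815 CPM in LSC, a ratio of LSC to 0 h of 6540 with a 95% exact counting interval from 1810 to 54000. Called higher were the granule protease activator Ctsc (148 and 118 CPM at 0 h, 33.9 CPM in LSC) and Igfbp4 (979.8 and 1019 CPM at 0 h, 253 CPM in LSC).

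Monocyte and macrophage genes moved in both directions, with more lower calls than higher. Of 40 tested, 15 were called lower at 0 h (37.5%) and 5 higher, with a median of -1.04; without replicate 1 the counts were 8 lower and 2 higher, and without replicate 2 they were 9 lower and 2 higher. Of the 30 present in both, 9 were lower and 4 higher. On TPM the balance changed, to 8 lower and 7 higher with a pseudocount of 1 and 4 lower and 5 higher with 0.1, and the summed TPM was 10432 and 7991 at 0 h and 7909 in LSC. The receptor of macrophage colony-stimulating factor, Csf1r, was at 4.47 and 5.82 CPM at 0 h and 129 CPM in LSC (log2 difference -4.65 ± 0.79 (SE), adjusted p = 0.00208), beside 235 CPM in GMP and 1068 in mAML. The lysosomal glycoprotein Cd68 was at 29.2 and 31.2 CPM at 0 h and 94.2 CPM in LSC. Higher at 0 h were the macrophage marker Adgre1 (312 and 317 CPM at 0 h, 115 CPM in LSC) and the saposin precursor Psap (828 and 842 CPM at 0 h, 355 CPM in LSC). The integrin chain Itgam was at 794 and 694 CPM at 0 h and 968 CPM in LSC (adjusted p = 0.0539).

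Among factors that steer these fates, Cebpa, the granulocytic regulator, was at 1065 and 880.4 CPM at 0 h and 248 CPM in LSC (log2 difference 1.97 ± 0.17 (SE), adjusted p = 5.52e-05). Spi1, which encodes PU.1, was at 213 and 206 CPM at 0 h and 453 CPM in LSC (log2 difference -1.11 ± 0.22 (SE), adjusted p = 0.00444), and Cebpd at 35.6 and 43.5 CPM at 0 h and 155 CPM in LSC. Cebpe, which drives the late granule program, was at 202 and 167 CPM at 0 h and 233 CPM in LSC (adjusted p = 0.72), and Irf8, a monocyte factor, at 37.1 and 41.7 CPM at 0 h and 26.3 CPM in LSC (adjusted p = 0.501). Of 28 myeloid transcription factors tested, 6 were called higher and 6 lower (21.4% each, against 13.5% and 11.1% of all genes). On TPM with pseudocounts of 1 and 0.1, 3 and 2 were lower.

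G2/M genes of the cell cycle lay below LSC at 0 h, most of them without being called. All 64 tested G2/M genes had a log2 difference below 0, with a median of -1.01; 16 were called lower (25%) and none higher. The kinesin Kif23 of the midbody was at 48.1 and 48.1 CPM at 0 h and 209.7 CPM in LSC (log2 difference -2.12 ± 0.46 (SE), adjusted p = 0.00674), and its partner Racgap1 at 128 and 108 CPM at 0 h and 332 CPM in LSC. The checkpoint gene Bub3 was at 152 and 161 CPM at 0 h and 339 CPM in LSC, and the condensin gene Smc4 at 287 and 304 CPM at 0 h and 621 CPM in LSC. The proliferation marker Mki67 was at 669 and 689.7 CPM at 0 h and 1391 CPM in LSC and Top2a at 668 and 583 CPM at 0 h and 868 CPM in LSC, with adjusted p values of 0.187 and 0.307. The count called lower was 4 without replicate 1 and 5 without replicate 2, 8 with library size as the only scaling, and 5 and 1 on TPM with pseudocounts of 1 and 0.1.

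Of 54 S-phase genes, 5 were called lower (9.26%, near the 11.1% of all genes) and none higher, with a median of -0.43. Tk1, thymidine kinase, was at 61.6 and 54.9 CPM at 0 h and 172 CPM in LSC, and the origin factor Cdc45 at 79.5 and 69.2 CPM at 0 h and 165 CPM in LSC. The helicase gene Mcm2 was at 258 and 218 CPM at 0 h and 309 CPM in LSC (adjusted p = 0.164). Without replicate 2 there were 3 lower calls.

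The list of G1 and kinase regulators had a median log2 difference of -0.08, with large differences in single members in both directions. Cdkn1a, which encodes the kinase inhibitor p21, was at 278 and 316 CPM at 0 h and 5.84 CPM in LSC (log2 difference 5.67 ± 0.30 (SE), adjusted p = 5.53e-06), and the inhibitor Cdkn1b was at 75.001 and 85.98 CPM at 0 h and 31.8 CPM in LSC. Cyclin D2, Ccnd2, was at 242 and 245 CPM at 0 h and 4.07 CPM in LSC (log2 difference 5.90 ± 0.63 (SE), adjusted p = 0.000184). Another inhibitor, Cdkn1c, had no count in either 0 h library and 54.4 CPM in LSC, at least 291-fold lower at 0 h by the floor of 3 counts over both libraries. In all, 3 of 21 G1 and kinase regulators were called higher and 3 lower, 14.3% each, near the 13.5% and 11.1% of all genes.

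Of the p53 targets, 10 of 27 were called higher at 0 h (37%) and 4 lower (14.8%); of the 22 present in both, 7 were higher and 3 lower. Without replicate 1, and on TPM, 2 were lower. Besides Cdkn1a and Sesn2, the death gene Bbc3 was at 30.6 and 50.4 CPM at 0 h and 2.60 CPM in LSC, and Zmat3, an RNA-binding p53 effector, at 45.7 and 56.1 CPM at 0 h and 1.27 CPM in LSC. The adhesion protein gene Perp was at 451 and 427 CPM at 0 h and had 3 counts in LSC, a ratio of 4620 with a counting interval from 1580 to 22400. The antiproliferative gene Btg2 was lower, at 1.76 and 0.661 CPM at 0 h and 114 CPM in LSC. In the BCL2 family 6 of 18 were called higher (33.3%) and none lower. They were the survival genes Bcl2 (83.8 and 80.3 CPM at 0 h, 13.4 CPM in LSC) and Bcl2l1 (189 and 199.6 CPM at 0 h, 59.7 CPM in LSC), the death genes Bax, Bcl2l11 and Bbc3, and Bmf. Survival and death genes of the family were thus both among the 6. Lower calls in the family numbered 2 without replicate 1 and with the 3 compared libraries alone, and 1 on TPM with a pseudocount of 1, with no filter and with a replicate block.

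Few genes of the growth machinery were called. Of 68 MYC network genes, 3 were called higher (4.41%, against 13.5% of all genes) and none lower. Myc itself was at 426 and 472 CPM at 0 h and 212 CPM in LSC (adjusted p = 0.264). Of 78 ribosomal protein genes, 3 were called lower (3.85%), and of 76 respiratory chain genes, 4 (5.26%), against 11.1% of all genes. The list medians of -0.27 and -0.22 became 0.11 and 0.28 on TPM. On TPM the calls turned as well, to 4 higher and 1 lower for ribosomal genes and 2 higher and none lower for respiratory chain genes. The 3 ribosomal genes, Rps29, Rps28 and Rpl39, have transcripts of 390, 327 and 394 bases. They lay below LSC on TPM as well. Rps29 was at 3606 and 3333 TPM at 0 h and 9868 in LSC. Rps28 was at 2844 and 3194 TPM at 0 h and 4280 in LSC. Rpl39 was at 4007 and 3979 TPM at 0 h and 5713 in LSC. The respiratory chain genes called lower, other than Atp5k, were also below LSC on TPM. Atp5k, with a transcript of 292 bases, was at 26.3 and 23.5 CPM at 0 h and 60.8 CPM in LSC but at 862 and 775 TPM at 0 h and 536 TPM in LSC, so its direction turned with the unit. Its effective length was 35.9 and 35.6 bases at 0 h and 126 bases in LSC. Of 135 tested genes with transcripts under 500 bases, 18 were called lower (13.3%) and 4 higher (2.96%). With the trend over transcript length removed, the ribosomal and respiratory chain medians were -0.11 and -0.02. In that setting 3 ribosomal genes were called lower and none higher, and 1 respiratory chain gene was called lower and 1 higher. That correction follows transcript length, and the part of fragment length itself in these calls was not tested.

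Of genes induced by IL-3 and STAT5, 11 of 28 were called higher at 0 h (39.3%) and 2 lower (7.14%), with a median of 0.78. Of the 23 present in both, 7 were higher and 2 lower, with a median of 0.46. Lower calls numbered 1 without replicate 1 and none without replicate 2. Cish, a feedback inhibitor of STAT5, was at 135 and 123 CPM at 0 h and 3.87 CPM in LSC (log2 difference 5.06 ± 0.19 (SE), adjusted p = 1.05e-06). A second feedback inhibitor, Socs2, was at 31.5 and 23.9 CPM at 0 h and had 2 counts in LSC, a ratio of 440 with a counting interval from 121 to 3640, and Socs3 was at 72.9 and 54.4 CPM at 0 h and 0.318 CPM in LSC. The survival kinase Pim1 was at 459.5 and 407 CPM at 0 h and 20.1 CPM in LSC (log2 difference 4.43 ± 0.40 (SE), adjusted p = 8.05e-05). Both GMP and LSC lay below both 0 h libraries for these 4 genes, with Cish at 1.35 CPM and Pim1 at 38.3 CPM in GMP, while the treated libraries held 99.96 to 323 CPM of Cish.

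The receptors of this family did not move together. The shared signalling chain Csf2rb was at 561 and 582 CPM at 0 h and 233 CPM in LSC, and its mouse paralog Csf2rb2 at 134 and 151 CPM at 0 h and 50.1 CPM in LSC; the pair are close in sequence, so reads may be split between them. The IL-3 receptor chain Il3ra was at 73.6 and 82.1 CPM at 0 h and 54.1 CPM in LSC (adjusted p = 0.137). Csf2ra, the ligand-binding chain for GM-CSF, had 3 counts over both 0 h libraries and 366 CPM in LSC, a ratio of LSC to 0 h of 1960 with a counting interval from 671 to 9510, beside 100.4 CPM in GMP, 509.9 in mAML and at most 0.331 CPM in the treated libraries. Kit had a log2 difference of -1.15 ± 0.31 (SE), and its adjusted p of 0.0173 became 0.0813 without replicate 1 and 0.0915 without replicate 2. Of 21 cytokine receptor genes, 5 were called higher (23.8%) and 6 lower (28.6%), with 2 lower when either 0 h replicate was left out. Of the 17 present in both, 4 were higher and 3 lower.

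Immediate-early genes, which cells switch on within minutes of a stimulus, split with more lower than higher: of 34 tested, 14 were called lower at 0 h (41.2%) and 7 higher (20.6%). Of the 24 present in both, 12 were lower and 2 higher, with a median of -1.43, so 5 of the 7 higher calls were of genes below the cutoff in LSC. The phosphatase gene Dusp1 was at 13.3 and 14.3 CPM at 0 h and 333 CPM in LSC (log2 difference -4.59 ± 0.18 (SE), adjusted p = 1.29e-06), and the AP-1 gene Fos at 21.2 and 8.07 CPM at 0 h and 265 CPM in LSC. Zfp36, which encodes an mRNA-decay factor, was at 40.2 and 26.6 CPM at 0 h and 501 CPM in LSC, and the NF-kappaB inhibitor gene Nfkbia at 39.97 and 36.2 CPM at 0 h and 159 CPM in LSC. Tumor necrosis factor, Tnf, was at 1.998 and 5.03 CPM at 0 h and 156 CPM in LSC, and mAML had more of each of these 5 transcripts than LSC, with 709 CPM of Dusp1 and 1382 CPM of Fos. The AP-1 gene Fosl2 was the other way, at 50.7 and 67.2 CPM at 0 h and 19.2 CPM in LSC, and Fosl1 was at 21.6 and 30.6 CPM at 0 h with 1 count in LSC, a ratio of 813 with a counting interval from 145 to 32200. The cytokine gene Csf1 was higher too, at 151 and 233 CPM at 0 h and 3.65 CPM in LSC.

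Interferon response genes were near the share of all genes, with 5 of 45 called higher (11.1%) and 6 lower (13.3%). One of the lower was Ifit2 (0.705 and 0.926 CPM at 0 h, 28.1 CPM in LSC), and one of the higher was the peptide transporter Tap1 (174 and 185 CPM at 0 h, 86.9 CPM in LSC). Without replicate 1 the count higher was 3, and of the 29 present in both 4 were higher and 3 lower. Lysosome and autophagy genes were called in 8 of 43 cases higher (18.6%) and 5 lower (11.6%), against 13.5% and 11.1% of all genes. The count lower was 3 without replicate 1 and 2 on TPM. Ctsh, a cathepsin, was at 0.353 and 0.794 CPM at 0 h and 112 CPM in LSC, while the autophagosome gene Gabarapl1 was at 198 and 197 CPM at 0 h and 32.4 CPM in LSC.

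The list of MLL-fusion targets, which also holds partner and cofactor genes of MLL such as Mllt3 and Men1, split as well. Of 34 tested, 6 were called higher at 0 h (17.6%, against 13.5% of all genes) and 9 lower (26.5%, against 11.1%). With replicate 1 left out, 5 were lower. Of the 27 present in both, 3 were higher and 7 lower. The Hoxa9 cofactor genes Meis1 and Pbx3 were at 33.6 and 53.2 CPM and 32.3 and 34.7 CPM at 0 h, against 115 CPM and 87.6 CPM in LSC, with log2 differences of -1.41 ± 0.38 (SE) and -1.39 ± 0.16 (SE). Eya1, a phosphatase and coactivator of homeobox factors, was at 43.7 and 66.1 CPM at 0 h and 125 CPM in LSC; without replicate 1 its adjusted p was 0.123 and that of Meis1 was 0.102. Hoxa9 had a log2 difference of -0.78 ± 0.27 (SE), under 2-fold, and an adjusted p of 0.0456 that was 0.182 without replicate 1. Its neighbours Hoxa11 and Hoxa5, named after their values were seen, lay far apart from it in opposite directions: Hoxa11 was at 106 and 155 CPM at 0 h and 0.127 CPM in LSC, and Hoxa5 was at 14.3 and 17.99 CPM at 0 h and 130.1 CPM in LSC.

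The homeobox gene Six4 was at 29.5 and 34.1 CPM at 0 h and 0.191 CPM in LSC (log2 difference 7.30 ± 0.41 (SE), adjusted p = 6.66e-06). Mllt3, a fusion partner gene of MLL, was at 31.04 and 32.3 CPM at 0 h and 0.445 CPM in LSC, and Men1, which tethers MLL to chromatin, at 132 and 129.8 CPM at 0 h and 55.3 CPM in LSC. Mef2c, a myeloid and lymphoid factor also named after its values were seen, was at 1.41 and 0.265 CPM at 0 h and 114 CPM in LSC, beside 92.4 CPM in GMP and 159 CPM in mAML.

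Stem and progenitor genes gave 6 called higher and 6 lower of 24 tested (25% each), with 3 lower when replicate 1 was left out. Cd34, a surface glycoprotein of progenitors, was at 432 and 473 CPM at 0 h and 84.7 CPM in LSC (log2 difference 2.42 ± 0.16 (SE), adjusted p = 1.36e-05). Gata2 was at 113 and 131 CPM at 0 h and 11.6 CPM in LSC, and Tal1 was at 75.4 and 63.4 CPM at 0 h with 3 counts in LSC, a ratio of 732 with a counting interval from 250 to 3550; both encode factors of stem, megakaryocyte, erythroid and mast cells. The zinc finger genes Ikzf2 and Ikzf1 differed in opposite directions, Ikzf2 at 155 and 154 CPM at 0 h and 18.3 CPM in LSC, Ikzf1 at 175 and 194 CPM at 0 h and 425 CPM in LSC.

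Ep300, which encodes p300, a target of A-485, was at 140.4 and 154 CPM at 0 h and 191 CPM in LSC (log2 difference -0.38 ± 0.17 (SE), adjusted p = 0.0996). Of 21 acetyltransferase and acetyl-lysine reader genes, 1 was called lower (4.76%, against 11.1% of all genes) and none higher. The lower gene was the scaffold gene Brpf1, at 81.6 and 79.5 CPM at 0 h and 218 CPM in LSC. Of 18 histone deacetylase and sirtuin genes, 2 were called higher (11.1%, near the 13.5% of all genes) and none lower. Without replicate 2 there was 1 higher call. Hdac7 was at 118 and 140.5 CPM at 0 h and 39.2 CPM in LSC.

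The furthest differences were in genes read in one label and almost absent from the other. At 0 h, 80 genes (0.667% of those tested) reached 10 CPM with at most 3 counts in LSC, and 143 genes (1.19%) reached 10 CPM in LSC with at most 3 counts over both 0 h libraries. Of the 80, 59 were above 1 CPM in all 8 treated libraries, 31 in GMP and 20 in mAML. Of the 143, 137 were under 1 CPM in all 8 treated libraries, while 102 were above 1 CPM in GMP and 138 in mAML.

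Cyp11a1, which starts steroid hormone synthesis, was at 1019 and 935 CPM at 0 h and had 1 count in LSC, a ratio of 30800 with a counting interval from 5540 to 1220000. Tnfrsf9, a costimulatory receptor, was at 315 and 239 CPM at 0 h with 2 counts in LSC, a ratio of 4390 with an interval from 1210 to 36300. With no count in LSC, the matricellular gene Nov was at least 588-fold higher at 0 h, the phosphatase gene Ptpn3 at least 514-fold, Bcat1, a transaminase of branched amino acids, at least 505-fold, and Il2ra, the IL-2 receptor chain, at least 266-fold. Nov was at 74.5 and 37.4 CPM at 0 h, Ptpn3 at 50.7 and 47.4, Bcat1 at 46.1 and 50.1 and Il2ra at 30.1 and 20.5.

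In the other direction, 14 of the 15 ranked genes had no count in either 0 h library. Hpgd, which inactivates prostaglandins, was at least 8541-fold lower at 0 h, against 1595 CPM in LSC, with 0.948 in GMP and 2058 in mAML. The opioid precursor gene Penk was at least 1815-fold lower at 0 h, against 339 CPM in LSC. Gatm, an enzyme of creatine synthesis, was at least 1249-fold lower at 0 h, against 233 CPM in LSC, with 253 CPM in GMP. The inhibitory lectin Siglece was at least 565-fold lower at 0 h, against 105 CPM in LSC, and the endocytic receptor Ly75 at least 315-fold lower, against 58.8 CPM in LSC. These 5 genes reached at most 0.488 CPM in any treated library.

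**Figure D5:**
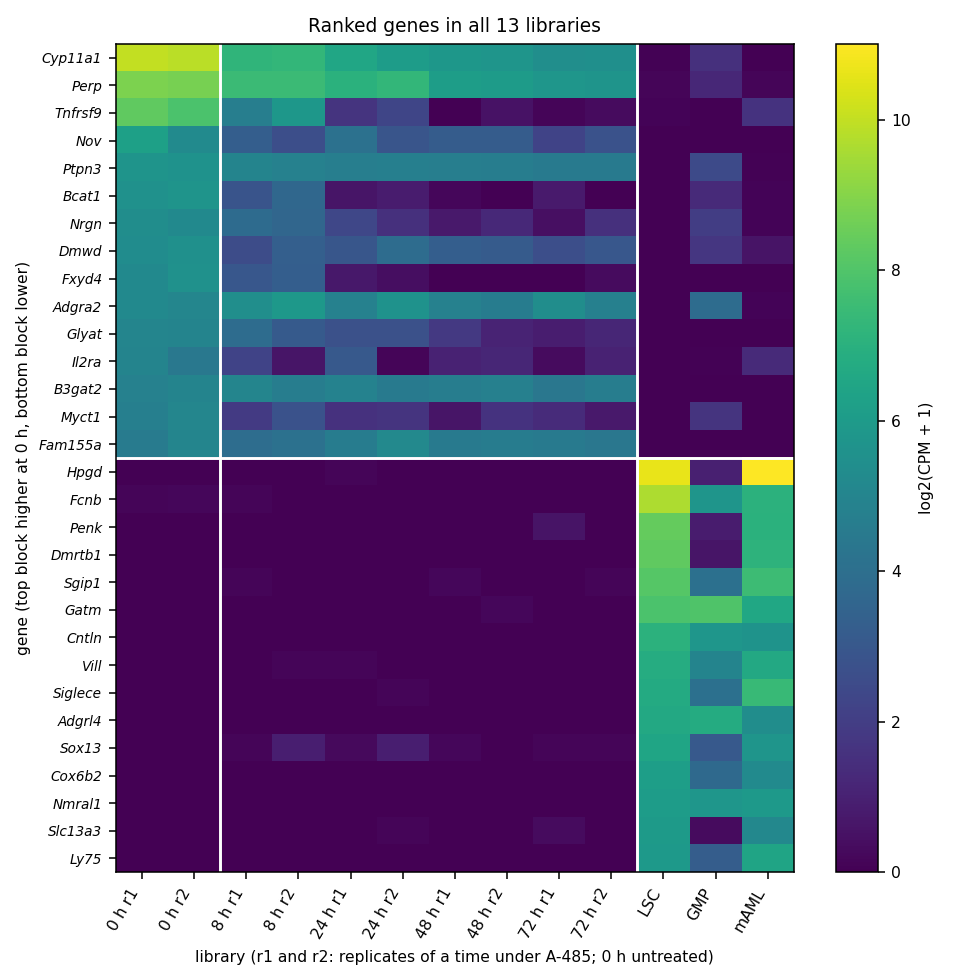
Levels as log2(CPM + 1) of the 15 largest rises (top block) and 15 largest falls (bottom block) at 0 h against LSC, across all 13 libraries, with the time course on the left and the single LSC, GMP and mAML libraries on the right. The genes of the bottom block, such as Hpgd, are dark in all 10 time-course libraries and bright in LSC.

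This division between library sets went beyond the ranked genes. Among the 1621 genes called higher at 0 h, 778 (48%) had all 10 time-course libraries above all 3 single libraries, against 11.2% of all tested genes. Among the 1334 called lower, 777 (58.2%) had all 10 below all 3, against 12.3% of all tested genes. The counts use the 0 h and LSC libraries themselves, so they describe where the other 10 libraries lay and are not a second test.

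Markers of other marrow cells were read beside these results. Of 22 mast cell, basophil and eosinophil markers, 11 were tested. Of these, 6 were called higher (54.5%, against 13.5% of all genes) and 1 lower (9.09%, against 11.1%). The summed TPM was 508 and 695 at 0 h and 113 in LSC. Of the 6 present in both, 2 were higher and 1 lower; without replicate 2 the counts over all tested were 3 higher and none lower. Cpa3, the mast cell carboxypeptidase, was at 231 and 132 CPM at 0 h, 1.33 in LSC and 46.3 in GMP, and the eosinophil peroxidase gene Epx was at 27.98 and 72.6 CPM at 0 h with 1 count in LSC and 218 CPM in GMP. Of 19 erythroid markers 6 were tested and 4 called higher (66.7%), only 1 of which was present in both. Their sums were 325 and 333 TPM at 0 h and 9.52 in LSC. Hbb-b2, a globin gene with near-identical copies, gave 285 and 298 TPM of the sums at 0 h. Of 15 megakaryocyte markers 9 were tested, 5 called higher (55.6%) and 1 lower (11.1%). None of these 6 was present in both, and the lower call was lost without either replicate. The sums were 238 and 212 TPM at 0 h and 23.9 in LSC. The integrin chain Itga2b, also a matrix list member, was at 396 and 326 CPM at 0 h and 0.572 CPM in LSC, while Gp9 was at 6.09 and 10.6 TPM at 0 h and 21.6 TPM in LSC. Most of the higher calls in these 3 lists were of genes below the cutoff in LSC, so they follow in part from the filter. Whether other cells contribute to these levels was not tested. In bulk RNA more cells of a type and more RNA per cell cannot be told apart.

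Pax5 (B cells), Cd3e (T cells), Ncr1 (NK cells) and Siglech (plasmacytoid dendritic cells) had no count in any of the 3 libraries. Other markers of these lineages did have counts. The T-cell kinase gene Lck had 64 and 52 counts at 0 h and 9 in LSC, and was called higher. Cd3g had 5 and 1 counts at 0 h and 0 in LSC, and the B-cell gene Cd79a had 0 at 0 h and 15 in LSC. Of 25 T and NK markers 5 were tested and 1 was called higher (20%, against 13.5% of all genes), with none lower. Their sums were 203 and 109 TPM at 0 h and 162 in LSC. The B-cell receptor chain Cd79b had 2 counts over both 0 h libraries and 44.9 CPM in LSC, beside 37.2 CPM in GMP and 53.9 in mAML. Of the stromal and endothelial markers, 2 of 11 tested were called higher and 2 lower (18.2% each), with 1 higher and none lower without replicate 1. Pecam1, an adhesion molecule of endothelium and leukocytes, was at 965 and 852 CPM at 0 h and 27.1 CPM in LSC. Cdh5 had no count at 0 h and 7 counts in LSC. Pdgfrb, a receptor of pericytes and fibroblasts, had 1 count over both 0 h libraries and 206 counts in LSC. Xist, the transcript of the inactive X chromosome, was at 229 and 456 CPM at 0 h and 406 CPM in LSC, and the Y-linked genes Ddx3y and Uty had no count in any of these 3 libraries.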

How the data were processed

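STAR, RSEM and the mouse build mm9 are named in the submitters' processing notes, with versions and settings not given in the sources used here. For each library, the deposited expected counts of 24328 genes are estimated reads per gene with no scaling. The deposited TPM are scaled by the authors for length and depth within each library. The deposited lengths and effective lengths, in bases, served to read fragment length. Per the labels, RNA was extracted with a column kit and libraries followed a standard Illumina protocol; strand is not stated, so overlapping antisense genes cannot be separated.

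Expected counts were rounded and fitted with edgeR 4.0.16 in R 4.3.3: TMM scaling, filterByExpr (a cutoff of 1.19 CPM, 11995 genes kept), the quasi-likelihood test, and a factor of 6 groups over the 11 libraries labelled as leukemia stem cells, with no replicate block and 5 residual degrees of freedom. Adjusted p values are Benjamini-Hochberg over all genes tested. Log2 differences are 0 h minus LSC, with an approximate SE from the F value. CPM use the same TMM factors, with GMP and mAML put on that scale through LSC. Genes at 0 in one group are given as bounds, with 3 counts in that group as the floor, and genes with 1 to 3 counts as a ratio with an exact 95% interval; both cover counting error only. The common biological coefficient of variation was 0.188. The 2 replicates at 0 h differed beyond counting noise (chi-square per degree of freedom 11.3), so they are not 1 library deposited in duplicate. In simulated counts of 11788 genes the call rule recovered 27% of 2-fold and 81% of 4-fold changes and made 17 false calls. Each simulated library, LSC included, had the spread fitted from the time course, and no library-set difference was put in. The 17 therefore do not give the rate of false calls in the real contrast.

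The members and the gene lists were chosen with earlier results of these data known. The rule for named genes took the 15 largest rises and falls among called genes that reached 10 CPM in the higher group and at least 4-fold in both 0 h libraries, up to 5 called members of each list by adjusted p plus up to 2 of the rarer direction, and a fixed list. Phgdh, Nupr1, Tgm2, Hoxa11, Hoxa5, Mef2c and the genes that complete a short list of calls or markers were named after their values were seen. Values are given for part of the genes the rule took, the plot of ranked genes shows all 15 in each direction, and a few genes are not reported here. Alternatives were library size as the only scaling, DESeq2 1.42.0, limma 3.58.1 on log2 TPM with pseudocounts of 1 and 0.1, no filter, other sets of libraries, LSC thinned to the 0 h depth, a length correction and a replicate block. Promoter letters came from RefSeq, GRCm38.p6; no coordinates of the files' own build are given.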

Additional observations from a re-analysis of the deposited data

How the results depend on the processing

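There were 12 other settings, 2 of which left out a 0 h replicate. The counts of genes called higher, and of glycolysis, matrix, sterol and ATF4 members called higher, stayed within 1.5 times in all 12. Leaving out 1 replicate gave 1367 to 1402 genes higher and 920 to 991 lower, 25 to 26 glycolysis, 10 to 11 matrix, 16 to 20 sterol and 15 to 17 ATF4 members higher, and 6 matrix, 4 primary granule, 11 to 19 late granule, 3 to 5 S-phase and 4 to 5 G2/M members lower. With library size as the only scaling, a shift of 0.166 in the median log2 difference, 1 S-phase and 8 G2/M members were lower. DESeq2 gave 5 matrix and 9 late granule members lower. On log2(TPM + 1), a shift of 0.134, there were 590 genes, 4 matrix, 2 S-phase and 5 G2/M members lower; on log2(TPM + 0.1), with a shift of 0.131, there were 539 genes, 1 matrix, 8 late granule, 1 S-phase and 1 G2/M members lower. With no filter, 10 primary granule and 28 G2/M members were lower, and with the 3 compared libraries alone 10, 26 and, for S phase, 3. The causes were not tested. Of the genes named in the text, 7 lost an adjusted p under 0.05 with DESeq2 (Penk 0.0573 among them) and 4 and 9 with limma on TPM with pseudocounts of 1 and 0.1 (Rps28 0.147 with 1; Kit 0.275, Tk1 0.0666 and Kif23 0.0595 with 0.1). Atp5k turned to 0.61 on TPM with either pseudocount, and Xist had 0.17 without replicate 1 and -0.82 without replicate 2.

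Replicate numbers give no pairing that holds across the times. Deviations of same-numbered libraries correlated at 0.649 between 8 h and 24 h, and at -0.427 and -0.434 between 72 h and those times. The other pairs of times gave 0.00468 to 0.179. A replicate difference thus ran through some treated times, whose libraries enter the spread used here. LSC carries no number, so it was coded midway in the fit with a replicate block. That block gave 1590 genes higher and 1330 lower, and 8 primary granule members lower in place of 4. Depth limits low genes: at 0 h, 3 counts over both libraries are 0.187 CPM.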
